A study of Xenopus laevis with 12 samples.

Results

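The genes described here are those that code for the proteasome, taken as every gene of the deposited log2 CPM table whose symbol runs from psma to psmg followed by a digit. The rule found 78 genes of 26050 in that table. They stand for 45 symbols, 33 of them present as both an L and an S homeolog, the copies on the long and short subgenomes of the allotetraploid frog *Xenopus laevis*, with 8 present as L alone and 4 as S alone. By role, 14 were alpha and 13 beta subunits of the 20S core, 18 belonged to the 19S base and 15 to the 19S lid, 6 were activators or the inhibitor, and 10 were assembly chaperones. The remaining 2, psmc3ip.L and psme3ip1.S, carry the prefix but code for proteins that are named for interacting with subunits and are not subunits.

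Wild-type embryos were raised in groups of 300 (large cohorts) or 100 (small cohorts) and were either exposed to 90 µM thioridazine or left untreated. Thioridazine, an antipsychotic drug of the phenothiazine class and a blocker of dopamine receptors, is a teratogen in frog embryos, and the study asked whether the number of embryos raised together changes the response to it. Whole embryos were collected at stage 35, and each library came from 15 pooled tadpoles, with 3 libraries in each of the 4 groups: thioridazine large, thioridazine small, control large and control small. The labels begin the exposure at stage 12.5 and end it at stage 35 but also name stage 25 embryos, while the study describes a recovery before stage 35, so the length of exposure is not settled. The study describes its embryos both as sharing a clutch within an experiment and as mixed from several mothers, and reports repeats of its experiments in different weeks, but does not say whether the pools of a group come from such repeats. The p-values therefore measure the spread between these pools, which may be technical.

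The proteasome is the large protease that degrades proteins tagged with ubiquitin. Its barrel, the 20S core, has outer rings of alpha subunits that form a gated entrance and inner rings of beta subunits, of which psmb5, psmb6 and psmb7 carry the cutting sites. The 19S particle caps the barrel, with a base of ATPases that unfold the substrate and a lid whose subunit psmd14 removes the ubiquitin chain. Other caps (PA28 and PA200) open the core without ATP, and in mammals immune cells exchange the cutting subunits for the inducible forms psmb8, psmb9 and psmb10. In mammalian cells the transcription factor NFE2L1 raises subunit genes together when proteasome activity is blocked, which is why the subunits are often measured as a group. *Xenopus* embryos hold proteasomes from the egg onwards, and degradation by ubiquitin times many steps of early development.

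The libraries held 4887343 to 7497662 expected counts, and counts were scaled to CPM (counts divided by the scaled total of the library, with TMM factors). A count of 0 allows up to 3 counts, which was 0.399 to 0.620 CPM, and this limit covers counting error only. Depth did not separate the treatments (exact permutation p = 0.877) or the cohort sizes (p = 0.351, exact permutation, two-sided). The proteasome genes took 0.321% to 0.364% of the counts of a library. Skeletal muscle, nervous system, epidermis, red blood cell, leukocyte and liver markers were present, with no gene of these lists at 0 in all libraries, although no krt5 gene was found. Summed nervous system markers were lower in thioridazine libraries (609 to 769 CPM) than in control libraries (867 to 953 CPM), with 7 of 10 genes called lower and none at 0. In the other lists 3 of 15 epidermis genes were called higher and 2 lower, 2 of 11 leukocyte genes higher and 1 of 9 liver genes lower, with summed levels that overlapped between the treatments, and no muscle or red blood cell gene was called. In whole embryos, fewer cells of a type and less RNA per cell cannot be told apart, and the part of tissue makeup in the results on the proteasome was not tested.

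Changes below are given on the log2 scale with their standard error and come from limma voom over 25553 genes, among them all 78 proteasome genes, and a gene was called at a Benjamini-Hochberg adjusted p under 0.05. The first comparison asked what thioridazine did to the proteasome genes when averaged over both cohort sizes. For nearly all of the complex no change stood out from the spread between pools. Of the 78 genes, 1 was called, psme4.L, which rose, while 9.04% of all genes tested were called in this comparison. At an unadjusted p under 0.05 there were 4 proteasome genes (3 higher and 1 lower) against 23.8% of all genes. The median change of the 78 genes was -0.0039, with 38 higher and 40 lower, and that of all genes tested was 0.0046. The intervals were narrow as well. The 95% interval lay within a 1.5-fold change either way for 72 of the 78 genes, against 71.3% of all genes, and within a 2-fold change for all 78. The proteasome genes also had higher levels, with a median of 40.7 CPM against 14.5 CPM for all genes tested. Their median standard error was 0.077, against 0.115.

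The 14 alpha subunits, which form the outer rings and the gate of the core, were evenly split, with 7 higher and 7 lower, none called and a median of -0.0042. The gene closest to a call was psma2.S, an alpha ring subunit, which had 38.7, 39.1 and 43.0 CPM in thioridazine large cohorts and 35.7, 39.8 and 37.0 CPM in thioridazine small cohorts, against 43.8, 49.3 and 49.8 CPM in control large cohorts and 43.7, 40.9 and 40.3 CPM in control small cohorts. Here 5 of the 6 thioridazine libraries were below every control library, and the other lay above 2 control libraries, so the groups overlapped. The change was -0.19 ± 0.06 (adjusted p = 0.0670), and its L copy went the same way by -0.08 ± 0.07 (adjusted p = 0.528). Upper quartile scaling, which put the median of all genes at -0.017, called psma2.S at an adjusted p of 0.0445.

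On the higher side, psma6.S, also of the alpha ring, had 47.4, 45.5 and 53.0 CPM in thioridazine large cohorts and 45.1, 54.3 and 43.1 CPM in thioridazine small cohorts, against 40.1, 47.5 and 38.8 CPM in control large cohorts and 43.9, 47.7 and 40.0 CPM in control small cohorts. The treatments overlapped between 43.1 and 47.7 CPM, and the change was 0.16 ± 0.08 (adjusted p = 0.229). The L copy of psma2 had 44.8, 43.0 and 39.4 CPM in thioridazine large cohorts and 41.3, 44.7 and 41.7 CPM in thioridazine small cohorts, against 47.0, 51.9 and 41.8 CPM in control large cohorts and 41.3, 43.1 and 44.8 CPM in control small cohorts. Its thioridazine libraries lay inside the control range of 41.3 to 51.9 CPM in 4 of 6 cases and below it in 2. Summed over the 14 alpha genes, the libraries held 494 to 565 CPM with thioridazine and 474 to 569 CPM in controls.

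The 13 beta subunits, the inner rings, gave 7 higher and 6 lower, none called, with a median of 0.0026. The genes of the catalytic subunits, psmb5, psmb6 and psmb7, were all present as pairs, and their 6 copies changed by between -0.12 (psmb6.S) and 0.01 (psmb7.L). Of these, psmb6.S, which codes for the subunit that cuts after acidic residues, had 19.1, 20.1 and 20.7 CPM in thioridazine large cohorts and 16.9, 16.9 and 20.04 CPM in thioridazine small cohorts, against 25.0, 23.1 and 19.5 CPM in control large cohorts and 18.7, 20.3 and 17.3 CPM in control small cohorts. Its groups overlapped, and the change was -0.12 ± 0.09 (adjusted p = 0.452).

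psmb1.S, a beta subunit without a cutting site, had 55.9, 59.2 and 58.6 CPM in thioridazine large cohorts and 62.8, 65.0 and 60.1 CPM in thioridazine small cohorts, against 58.3, 59.4 and 55.9 CPM in control large cohorts and 55.5, 56.1 and 54.7 CPM in control small cohorts. Its 3 thioridazine small libraries were above all 6 control libraries, while the thioridazine large libraries were not, and the averaged change was 0.09 ± 0.05 (adjusted p = 0.324). The beta gene with the smallest p, psmb4.L, also a subunit without a cutting site, had 40.0, 51.1 and 50.2 CPM in thioridazine large cohorts and 53.0, 53.8 and 37.5 CPM in thioridazine small cohorts, against 58.6, 64.7 and 68.8 CPM in control large cohorts and 47.4, 39.5 and 45.1 CPM in control small cohorts. Its control large libraries stood above the other 9, and its averaged change of -0.18 ± 0.10 (adjusted p = 0.294) did not pass.

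The 18 genes of the 19S base, the ring of ATPases psmc1 to psmc6 with the scaffold subunits psmd1 and psmd2 and the ubiquitin receptor psmd4, gave 6 higher and 12 lower, with none called and a median of -0.0081. psmd4.L had 21.1, 22.6 and 25.3 CPM in thioridazine large cohorts and 25.1, 22.0 and 21.0 CPM in thioridazine small cohorts, against 25.6, 30.7 and 30.8 CPM in control large cohorts and 25.0, 20.7 and 22.6 CPM in control small cohorts. As for psmb4.L, the control large libraries were the highest group, and the averaged change was -0.17 ± 0.09 (adjusted p = 0.235). The ATPase gene psmc3.S had 21.8, 25.5 and 28.0 CPM in thioridazine large cohorts and 28.6, 24.1 and 26.7 CPM in thioridazine small cohorts, against 23.4, 24.4 and 19.3 CPM in control large cohorts and 23.3, 22.1 and 24.1 CPM in control small cohorts. Here 5 of the 6 thioridazine libraries were above the control median, with a change of 0.17 ± 0.09 (adjusted p = 0.240). psmd2.S, a scaffold subunit that docks ubiquitin-carrying proteins, had 72.6, 77.1 and 76.2 CPM in thioridazine large cohorts and 65.6, 81.6 and 74.3 CPM in thioridazine small cohorts, against 80.4, 87.1 and 85.4 CPM in control large cohorts and 83.8, 72.1 and 69.3 CPM in control small cohorts. The treatments overlapped widely, with a change of -0.09 ± 0.06 (adjusted p = 0.432). The precision was high for the most abundant base genes, with a 95% interval of -0.11 to 0.10 for psmd1.L and of -0.15 to 0.07 for psmd1.S.

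The 15 genes of the 19S lid, the part that takes the ubiquitin chain off, gave 7 higher and 8 lower, with none called and a median of -0.016. psmd8.S, a lid subunit, had 53.4, 54.7 and 58.9 CPM in thioridazine large cohorts and 54.6, 54.2 and 48.6 CPM in thioridazine small cohorts, against 57.1, 55.9 and 59.2 CPM in control large cohorts and 59.9, 55.9 and 55.6 CPM in control small cohorts. All thioridazine libraries but that at 58.9 CPM lay below the lowest control library (55.6 CPM), so the treatments overlapped. The change was -0.09 ± 0.06 (adjusted p = 0.364). psmd14.S, the deubiquitinase of the lid, had 24.0, 22.1 and 30.0 CPM in thioridazine large cohorts and 27.5, 28.4 and 28.0 CPM in thioridazine small cohorts, against 27.0, 32.6 and 35.9 CPM in control large cohorts and 30.1, 29.3 and 22.7 CPM in control small cohorts. Its change was -0.14 ± 0.10 (adjusted p = 0.429), and the L copy gave -0.10 ± 0.09 (adjusted p = 0.530). psmd3.L, a scaffold subunit of the lid, had 120.4, 112 and 124 CPM in thioridazine large cohorts and 133, 123 and 112 CPM in thioridazine small cohorts, against 115, 116 and 113 CPM in control large cohorts and 116, 118 and 113 CPM in control small cohorts. Its control libraries were tight, at 113 to 118 CPM, and 4 of 6 thioridazine libraries lay above them, with a change of 0.07 ± 0.05 (adjusted p = 0.487).

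The activators and the inhibitor were the class that held the call. All 6 genes had positive estimates, with a median of 0.15, 1 called and 3 at an unadjusted p under 0.05. Those of psmf1.L, psme2.L and psme1.S, given below, were no larger than their standard errors. In small cohorts all 6 were higher, while in large cohorts 4 were higher and 2 lower. Only psme4.L was called. It codes for PA200, a nuclear cap of the core best known in mammals for the degradation of histones. It had 104, 107 and 106 CPM in thioridazine large cohorts and 121, 123 and 101 CPM in thioridazine small cohorts, against 90.9, 84.1 and 85.5 CPM in control large cohorts and 97.7, 96.8 and 94.6 CPM in control small cohorts. The lowest thioridazine library (101 CPM) was above the highest control library (97.7 CPM). No other proteasome gene had separate groups of 6 libraries, against 4.83% of all genes tested. psme4.L averaged 110.3 ± 9.35 CPM in thioridazine libraries and 91.6 ± 5.78 CPM in control libraries (SD, n = 6 each), a change of 0.26 ± 0.06 (adjusted p = 0.00910). Within a cohort size the change was 0.28 ± 0.08 in large cohorts (adjusted p = 0.0840) and 0.24 ± 0.08 in small cohorts (adjusted p = 0.107), so it was called in neither alone. edgeR's quasi-likelihood test and DESeq2 called it too, at adjusted p of 0.00771 and 0.00312. With each library left out in turn it was called every time, with changes of 0.23 to 0.31. With 2 surrogate variables in the model (unmeasured sources of variation estimated from the data), the change was 0.17 and the call was lost (adjusted p = 0.791). Those variables left 64 called genes in all, against 2310 without them. In an earlier analysis of these data the first such variable followed treatment. How much of the treatment's effect they took up was not tested.

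psme3, which codes for PA28 gamma, a nuclear activator, was next in both copies. psme3.L had 77.1, 104 and 88.0 CPM in thioridazine large cohorts and 91.2, 103 and 95.9 CPM in thioridazine small cohorts, against 78.5, 76.0 and 77.0 CPM in control large cohorts and 71.2, 88.4 and 85.9 CPM in control small cohorts. Of the thioridazine libraries, large replicates 1 and 3 sat inside the control range while the other 4 were above all controls, and the change was 0.23 ± 0.08 (adjusted p = 0.0754). Without thioridazine large replicate 1 it passed (0.28, adjusted p = 0.0233). psme3.S had 137, 146 and 144 CPM in thioridazine large cohorts and 150.1, 134 and 133 CPM in thioridazine small cohorts, against 121, 129 and 123 CPM in control large cohorts and 131, 139 and 126 CPM in control small cohorts. The 2 ranges met between 133 and 139 CPM, and the change was 0.13 ± 0.05 (adjusted p = 0.106). When the counts of the L and S copies were summed before the fit, which gave 45 symbols, psme4 and psme3 were the 2 called, psme3 with a change of 0.16 ± 0.05 (adjusted p = 0.0378), among 10.1% of all features of that fit.

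**Figure D1:**
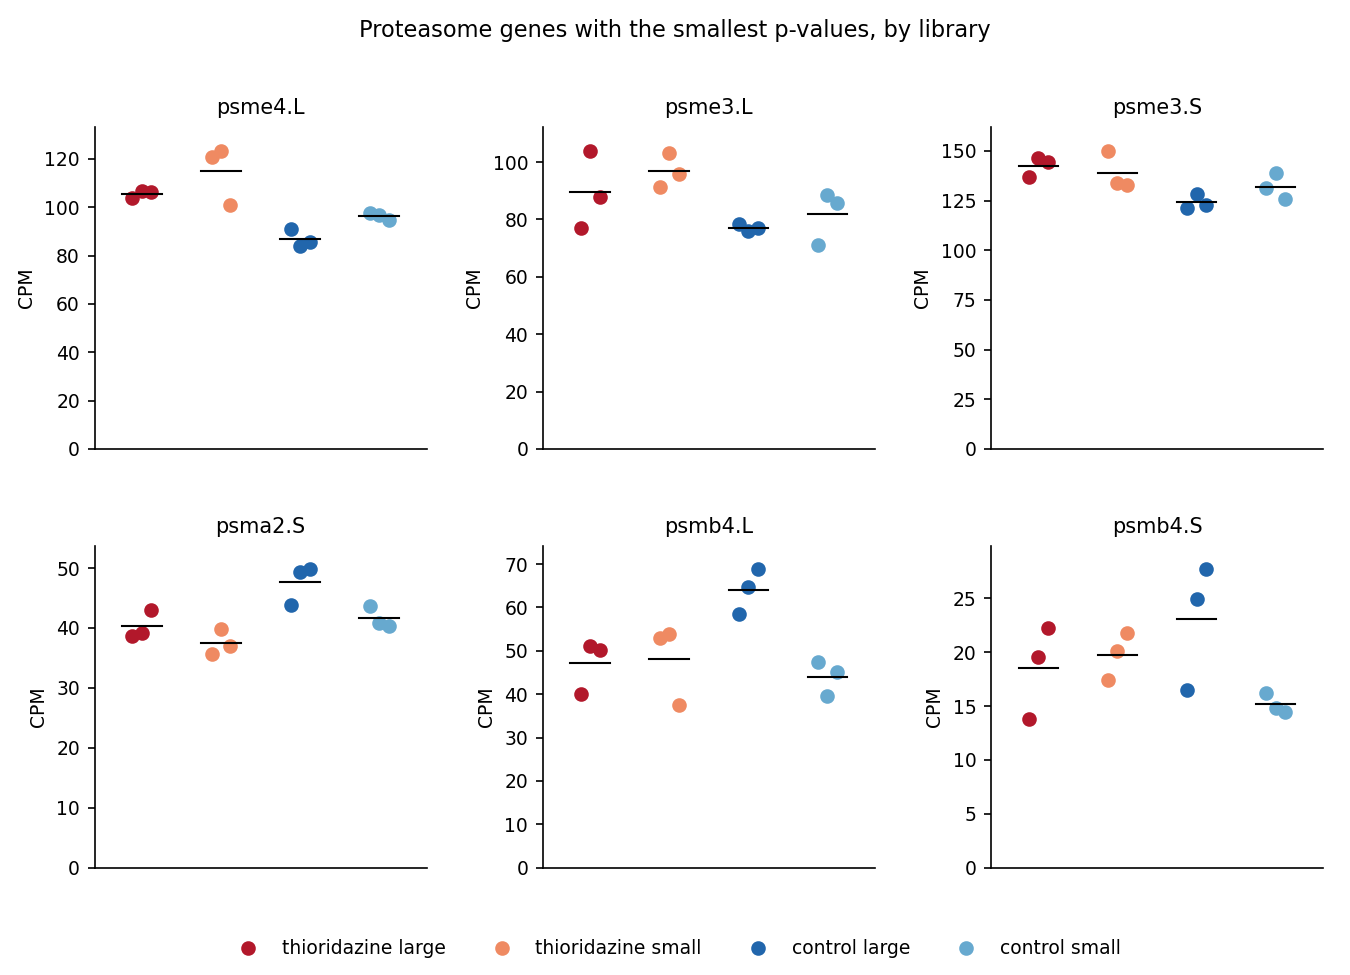
CPM in each of the 12 libraries (points) and the mean of each group of 3 (bars) for 6 proteasome genes. All 6 thioridazine libraries of psme4.L lie above all control libraries, the groups overlap for psme3.L, psme3.S and psma2.S, and psmb4.L and psmb4.S are highest in control large cohorts.

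The other 3 genes of the class were low. psmf1.L, which codes for the inhibitor PI31, had 10.6 to 16.6 CPM in thioridazine libraries (median 12.2), against 9.92 to 15.7 CPM in control libraries (median 11.8), and its change was 0.11 ± 0.12 (adjusted p = 0.665). The interferon-induced activator subunits, known as such from mammals, stood near the bottom of the table. psme2.L had 4.07 to 7.25 CPM in thioridazine libraries (median 5.05), against 3.73 to 8.31 CPM in control libraries (median 5.52), and psme1.S had 0.979 to 2.95 CPM in thioridazine libraries (median 2.55), against 0.854 to 2.40 CPM in control libraries (median 2.26). Their changes of 0.00 ± 0.18 and 0.17 ± 0.28 (adjusted p = 0.994 and 0.773) had wide intervals, -0.38 to 0.38 for psme2.L and -0.42 to 0.76 for psme1.S, so that a change of this size was not detectable at this depth. Summed over the class, the libraries held 337 to 384 CPM with thioridazine, against 305 to 344 CPM in controls. Only the lowest thioridazine library (large replicate 1, 337 CPM) was under the highest control library (small replicate 2, 344 CPM). Most of that sum came from psme4.L and both copies of psme3, so it repeats their changes. The nervous system markers moved with the treatment in these same libraries, as given above, and their part in the change was not tested.

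The 10 genes of the assembly chaperones, proteins that help build the complex and leave it, gave 4 higher and 6 lower, with none called and a median of -0.036. By the medians over its genes, this class had lower levels (7.06 CPM) and larger standard errors (0.16) than the core, 19S and activator classes, although the largest single standard error was that of psme1.S. psmg4.L, a chaperone of the alpha ring, had 1.13, 1.23 and 1.74 CPM in thioridazine large cohorts and 1.53, 1.30 and 1.59 CPM in thioridazine small cohorts, against 1.73, 2.89 and 2.23 CPM in control large cohorts and 1.92, 1.71 and 1.65 CPM in control small cohorts. The treatments overlapped at 1.65 to 1.74 CPM, and the change was -0.45 ± 0.23 (adjusted p = 0.252), the lowest of the 78. psmd10.L, gankyrin, a chaperone of the base, had 5.24, 7.09 and 3.82 CPM in thioridazine large cohorts and 5.35, 5.22 and 5.85 CPM in thioridazine small cohorts, against 4.13, 5.78 and 5.75 CPM in control large cohorts and 3.83, 5.12 and 3.31 CPM in control small cohorts. Its change of 0.26 ± 0.18 (adjusted p = 0.415) and that of the S copy, -0.24 ± 0.19 (adjusted p = 0.503), had opposite signs, and neither passed. psmd5.L, another chaperone of the base, had 25.2, 24.0 and 26.6 CPM in thioridazine large cohorts and 23.1, 26.1 and 20.9 CPM in thioridazine small cohorts, against 22.6, 25.8 and 23.7 CPM in control large cohorts and 21.1, 20.3 and 22.2 CPM in control small cohorts. Its libraries of both treatments were mixed, with a change of 0.10 ± 0.08 (adjusted p = 0.459).

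Grouped into particles, the 27 genes of the 20S core had a median change of 0.0018 (14 higher and 13 lower) and the 33 genes of the 19S particle a median of -0.010 (13 higher and 20 lower), beside 0.0046 for all genes. The 95% interval was within 1.5-fold for all 27 core genes and for 32 of 33 genes of the 19S particle, psmc4.S being the exception, with an interval of -0.63 to 0.24. The medians of the classes are descriptions, and no test was made of one class against another.

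**Figure D2:**
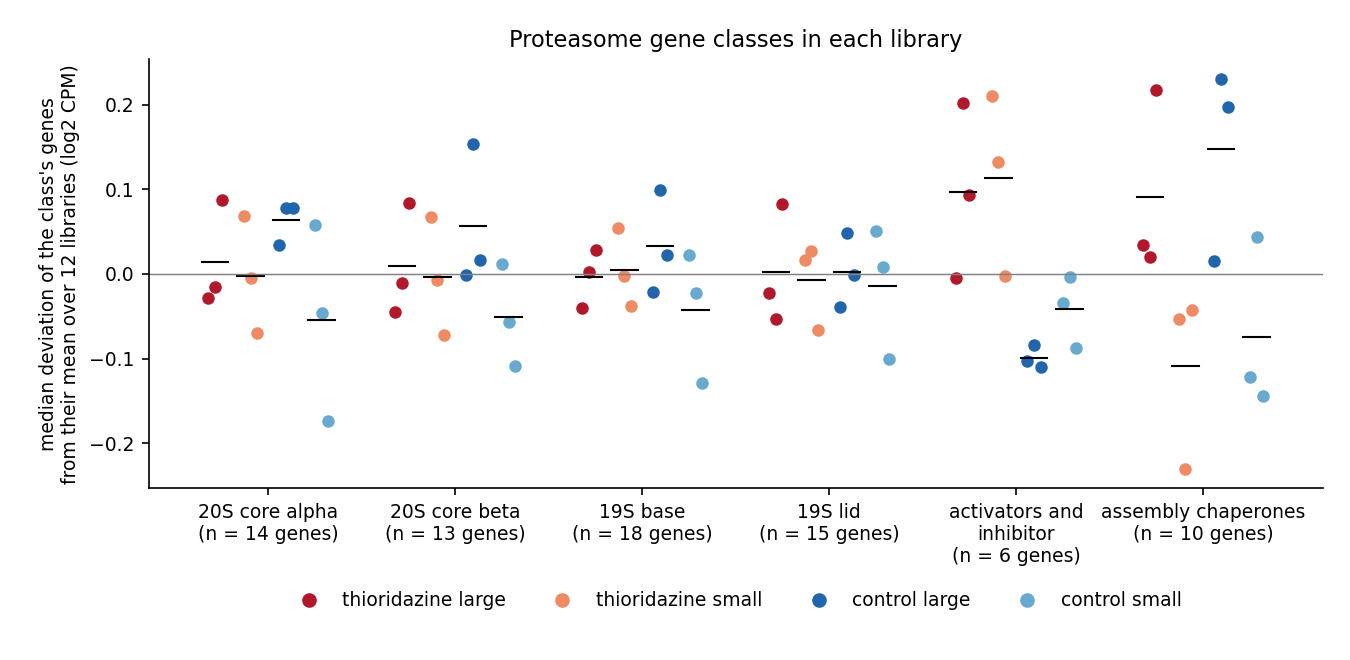
Median deviation of the genes of each class from their own mean over 12 libraries, in log2 CPM, for each library (points), with the mean of 3 libraries of a group (bars). In the activator and inhibitor class, control libraries lie between -0.11 and -0.0038 and thioridazine libraries between -0.0042 and 0.21, so that they meet in 1 thioridazine library, and the core and 19S classes overlap more widely.

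The same classes can be read library by library. Over all 78 genes, the median deviation from each gene's own mean ranged from -0.049 to 0.083 in thioridazine libraries and from -0.11 to 0.092 in control libraries. The lowest library was control small replicate 3 (-0.11) and the highest control large replicate 2 (0.092), both of them control libraries. In control small replicate 3 all 4 core and 19S classes were low, at -0.17 for the alpha, -0.11 for the beta, -0.13 for the base and -0.10 for the lid genes.

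Thioridazine was also compared with control within each cohort size. In large cohorts 0 of 78 proteasome genes were called by limma, with 2.24% of all genes called, and 7 had an unadjusted p under 0.05 (2 higher and 5 lower), with 16.9% of all genes. edgeR and DESeq2 called 0 as well. The groups of 3 did not overlap for 15 genes (6 higher and 9 lower), against 23.7% of all genes. The median change was -0.050, with 30 genes higher and 48 lower. Left without control large replicate 2 it was -0.0027, and leaving out thioridazine large replicate 1 instead gave -0.0035. Without thioridazine large replicate 3 it was -0.074. Liver and red blood cell markers also stood apart here, with liver sums of 2131 to 2296 CPM in thioridazine large cohorts, against 2404 to 3162 CPM in control large cohorts, and red blood cell sums of 377 to 424 CPM in thioridazine large cohorts, against 442 to 523 CPM in control large cohorts. Their part in the median was not tested. In small cohorts limma, edgeR and DESeq2 again called 0, with 2.81% of all genes called by limma, and 4 genes had an unadjusted p under 0.05 (3 higher and 1 lower), with 18.4% of all genes. There 14 genes did not overlap (8 higher and 6 lower), against 21.7% of all genes, and the median change was 0.035, with 46 genes higher and 32 lower. Without control small replicate 3 that median was -0.00034, without thioridazine small replicate 1 it was 0.016, and without control small replicate 1 it was 0.069. Summed epidermis markers stood apart, at 4463 to 6144 CPM in thioridazine small cohorts, against 6187 to 6365 CPM in control small cohorts. Of 15 epidermis genes, 2 were called lower there and 0 higher. In large cohorts 2 of the 15 were called higher and 0 lower, and 1 of 11 leukocyte genes was called higher. The sums of both lists overlapped in large cohorts. Nervous system sums did not overlap in either cohort size. The part of these markers in the median was not tested.

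The changes in large and in small cohorts were next set side by side. Of the 78 genes, 32 had the same sign in both, and across genes the changes had a Pearson r of 0.03 (Spearman rho -0.02, 78 genes, which are not independent replicates). Over all genes tested 61.8% had the same sign, with a Pearson r of 0.47. The proteasome changes were small, at -0.26 to 0.44 in small and -0.67 to 0.31 in large cohorts. Their median standard error was 0.11 in both. Changes over all genes reached 6.26 in small and -8.98 in large cohorts. With changes this near their errors, r cannot tell a difference between cohort sizes from noise. The comparisons in large and in small cohorts share no library. For 3 of the 78 genes (psmg2.L, psmd8.L and psmd12.S) the groups did not overlap in either cohort size and the changes went opposite ways, a pattern held by 0.747% of all genes. The interaction, the difference between the changes in large and in small cohorts, called 0 of 78 genes (0.0196% of all genes), also by edgeR and DESeq2. At an unadjusted p under 0.05 there were 4 genes (1 higher and 3 lower), with 7.74% of all genes, and the median was -0.068 with 53 of 78 below 0. The lowest adjusted p was 0.493, for psmg2.L.

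Cohort size was the study's main question, and it was tested within each treatment. Among controls, limma called 0 of 78 proteasome genes (0.125% of all genes), edgeR 0 (0.0274%) and DESeq2 1 (psmb4.L, 0.45%). Of the 78, 6 had an unadjusted p under 0.05, all higher in large cohorts, with 8.75% of all genes. The groups of 3 did not overlap for 12 (10 higher and 2 lower), against 16% of all genes. The direction was uneven: 56 of 78 were higher in control large cohorts, with a median change of 0.082. Among the 25553 genes tested, 12613 were higher and the median of all was -0.0030. The 78 genes share libraries and are not independent replicates. Their median deviation by library was -0.0085, 0.092 and 0.030 in control large cohorts. In control small cohorts it was 0.017, -0.015 and -0.11, so the cohort sizes overlapped. Between replicates this deviation had an SD of 0.056. By class, 22 of 27 core genes and 16 of 18 base genes were higher, against 7 of 15 lid genes and 2 of 6 activator and inhibitor genes. Summed assembly chaperones did not overlap, at 96.1 to 107 CPM in control large cohorts, against 92.4 to 95.5 CPM in control small cohorts. Over both treatments they held 96.1 to 117 CPM in large cohorts and 90.8 to 95.5 CPM in small cohorts. That sum gives most weight to the chaperone genes with the highest levels, and it was not tested. The median deviations of that class did overlap among controls, at 0.015 to 0.23 in large and -0.14 to 0.044 in small cohorts. For cohort size averaged over both treatments, limma called 0 of the 78 genes. Among all 25553 genes it called 11 higher and 7 lower. The groups of 6 libraries overlapped for each of the 78, while they stood apart for 80 of all genes. The count of 56 rested in part on the library that stood lowest. Without control small replicate 3, 46 of 78 were higher, with a median of 0.043. Without control large replicate 2, 51 of 77 genes tested were higher, with a median of 0.046. Other libraries left out moved it up. It was 0.12 without control small replicate 1 (59 of 77 higher) and 0.10 without control large replicate 1 (59 of 78 higher). With 2 surrogate variables 49 were higher and the median was 0.071. Markers of other tissues moved with cohort size in the same control libraries. Summed liver markers were at 2404 to 3162 CPM in control large cohorts, against 1368 to 2139 CPM in control small cohorts, with 3 of 9 genes called higher, and summed red blood cell markers were at 442 to 523 CPM in control large cohorts, against 237 to 416 CPM in control small cohorts, with 1 of 8 called higher. Neither list overlapped between the cohort sizes, and their part in the uneven direction was not tested. The control libraries of this comparison also serve in those with thioridazine, so the higher levels in control large cohorts and the lower changes with thioridazine in large cohorts are not separate evidence.

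The gene with the smallest p in this comparison was psmb4.L, a beta subunit, with 58.6, 64.7 and 68.8 CPM in control large cohorts, against 47.4, 39.5 and 45.1 CPM in control small cohorts. Every large cohort library was above every small cohort library, with a change of 0.53 ± 0.14 (adjusted p = 0.167). Fitted on these 6 libraries alone it was called. Its S copy, at a lower count, had 16.5, 24.9 and 27.7 CPM in control large cohorts, against 16.2, 14.9 and 14.4 CPM in control small cohorts. The groups did not overlap there either, and the change was 0.53 ± 0.20 (adjusted p = 0.442). Under thioridazine neither copy differed in this way. psmb4.L had 40.0, 51.1 and 50.2 CPM in thioridazine large cohorts, against 53.0, 53.8 and 37.5 CPM in thioridazine small cohorts, and psmb4.S had 13.8, 19.5 and 22.2 CPM in thioridazine large cohorts, against 17.4, 20.1 and 21.8 CPM in thioridazine small cohorts. Both groups overlapped, with changes of -0.01 ± 0.14 and -0.15 ± 0.20 (adjusted p = 0.994 and 0.927), and the interaction was -0.54 ± 0.19 for the L copy (adjusted p = 0.501), so that a difference between treatments did not pass the test.

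psmd4, the ubiquitin receptor of the base, had a like pattern in both copies. psmd4.L had 25.6, 30.7 and 30.8 CPM in control large cohorts, against 25.0, 20.7 and 22.6 CPM in control small cohorts, and its groups did not overlap. The change was 0.33 ± 0.12 for psmd4.L (adjusted p = 0.399) and 0.31 ± 0.15 for psmd4.S (adjusted p = 0.584). Under thioridazine the changes were 0.02 ± 0.12 for psmd4.L (adjusted p = 0.984) and -0.18 ± 0.15 for psmd4.S (adjusted p = 0.865). Both genes lie on the chromosomes that also carry psmb4, 8L and 8S in the RefSeq records. Any part of their location in the pattern was not tested. The genes psmb4.S and psmd4.S were chosen for naming after their values were seen.

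Large and small cohorts were compared under thioridazine as well. limma called 0 of 78 (0.0744% of all genes), as did edgeR and DESeq2, and 2 had an unadjusted p under 0.05 (1 higher and 1 lower), with 6.91% of all genes. For 8 genes the groups did not overlap (5 higher and 3 lower), against 10.7% of all genes. The median change was 0.017, with 43 higher and 35 lower, and its sign depended on single libraries. It was -0.021 (33 higher) without thioridazine large replicate 3 and -0.0012 without thioridazine small replicate 3, but 0.052 (49 higher) without thioridazine large replicate 1 and 0.047 without thioridazine small replicate 1. With 2 surrogate variables it was 0.064, with 55 higher. Summed liver markers did not overlap here either, at 2131 to 2296 CPM in thioridazine large cohorts, against 1588 to 2103 CPM in thioridazine small cohorts, and their part was not tested. The gene with the smallest p was psmg2.L, a chaperone of the alpha ring, with 20.8, 19.4 and 24.5 CPM in thioridazine large cohorts, against 17.6, 15.0 and 15.7 CPM in thioridazine small cohorts. The large cohort libraries were all above the small ones, with a change of 0.42 ± 0.12 (adjusted p = 0.444). In controls it had 18.1, 18.4 and 19.3 CPM in control large cohorts, against 19.4, 19.4 and 18.6 CPM in control small cohorts, with a change of -0.04 ± 0.11 (adjusted p = 0.953).

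The frog carries most subunits as a homeolog pair, and the share of a pair's counts that was assigned to the L copy gives a view of the complex that treatment did not set. Reads that match both copies were divided by estimation, and the lengths of the transcripts were not used, so a share is one of counts and not of molecules. Of the 33 pairs, the L copy was above the S copy in all 12 libraries in 18 (54.5%) and below it in all 12 in 7 (21.2%), while among all 6478 pairs tested these were 45.9% and 23.1%. The median share of L was 55.1% both for the proteasome pairs and for all pairs.

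The ATPase pair psmc4 leaned most to L, with 79.3% to 90.1% of its counts, and the alpha subunit pair psma3 followed with 78.5% to 87.7%. The ATPase pair psmc3 had 75.4% to 80.9%. At the other end stood the alpha subunit pair psma5, with 17.7% to 24.5% from L, and the chaperone pair psmg4, with 22.7% to 41.4%. psme3 (35.2% to 43.6%) and the scaffold pair psmd1 (38.5% to 42.5%) also leaned to S in every library. Within the alpha ring, psma3 and psma5 thus leaned to opposite subgenomes, while psma2 was near even, at 45.7% to 53.7%.

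**Figure D3:**
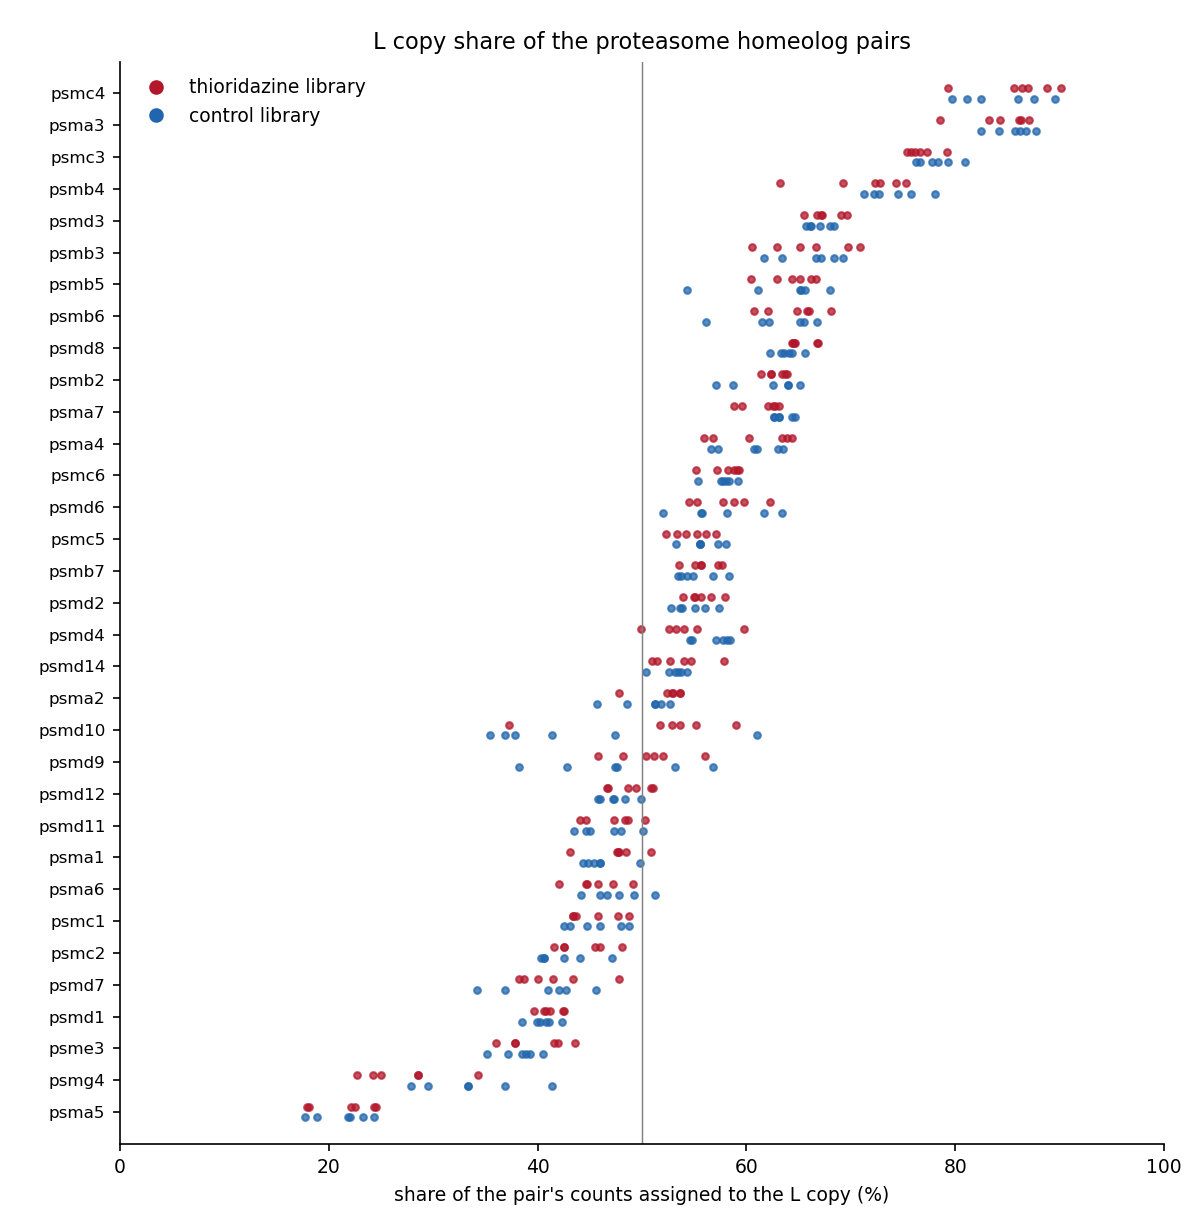
Share of the counts of each of 33 homeolog pairs that was assigned to the L copy, in percent, in 6 thioridazine libraries (red) and 6 control libraries (blue). Shares run from a median of 22.1% for psma5 to 86.2% for psmc4, and the colours overlap in every pair.

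These shares did not differ beyond the spread with thioridazine or cohort size. limma on the L minus S difference of log2 CPM called 0 of 33 pairs for thioridazine (1.17% of all pairs), and 0 had an unadjusted p under 0.05 (12.3% of all pairs), the lowest adjusted p being 0.507. For cohort size it called 0 of 33 (0.0154% of all pairs) and 0 had an unadjusted p under 0.05 (6.17% of all pairs), the lowest adjusted p being 0.812. In psmc4 the L share was 86.2 ± 3.75% in thioridazine libraries and 84.4 ± 3.87% in control libraries (SD, n = 6 each). In psma5 it was 21.6 ± 2.92% in thioridazine libraries and 21.4 ± 2.57% in control libraries (SD, n = 6 each). The difference that came nearest was psmd10, whose L minus S change was 0.48 ± 0.27, with an adjusted p of 0.507 and few counts in both copies.

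Of the inducible subunits of the core, which replace the catalytic ones in mammalian immune cells, only psmb8.L and psmb9.S were found. No gene with the symbol psmb10 was in the count table. psmb8.L and psmb9.S were below the cutoff of the log2 CPM table and were not tested. psmb8.L summed to 27 counts over the 6 thioridazine libraries and 29 counts over the 6 control libraries, which was at most 1.45 CPM in a library. A single count fell on psmb9.S, in a control library, and a single count on psmb11.L, the thymus form, in a thioridazine library. The genes psmb7.2.L (16 counts with thioridazine and 10 in controls) and psme1.L (23 counts with thioridazine and 20 in controls) were likewise left out, as were psmg3.S with few counts and psmb7.2.S with 0. For psmb7.2.S the limit of 3 counts in a library was at most 0.620 CPM. These 7 genes bring the rule's matches in the count table to 85. Leukocyte markers were present in every library, at 247 to 380 CPM with thioridazine and 262 to 379 CPM in controls.

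The product names in the deposited log2 CPM table give further proteasome genes that the symbol rule does not reach, and none of them was called with thioridazine. The gene LOC121393661, a beta type-1-B-like subunit, averaged 50.4 ± 4.21 CPM in thioridazine libraries and 47.9 ± 3.91 CPM in control libraries (SD, n = 6 each). LOC121396601, named as like regulatory subunit 6B, averaged 15.8 ± 1.67 CPM in thioridazine libraries and 13.7 ± 1.99 CPM in control libraries (SD, n = 6 each). The ubiquitin receptor genes adrm1.L and adrm1.S and the small lid subunit gene sem1.S were not called either. Both sets of names were seen after the values of the comparison were known.

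Some genes that work with the proteasome did rise with thioridazine. Lists of linked genes were matched by symbol without the suffix, and each is given with its genes tested. Among 19 genes of transcription factors of the subunit genes and their processing, 4 rose and 0 fell with thioridazine. Among 19 genes of endoplasmic reticulum associated degradation, the route that sends misfolded proteins of that compartment to the proteasome, 5 rose and 0 fell. Among 14 genes of aggregate handling, 1 rose and 0 fell. No gene was called among 15 of the COP9 signalosome (a relative of the lid), 17 proteasome-associated factors, 20 shuttle receptors and p97 factors, 9 ubiquitin and activating enzyme genes, 3 other 19S subunits, and 4 of peptide loading and MHC class I. At an unadjusted p under 0.05 these had 0, 2, 3, 1, 0 and 0 genes in the same order. As above, 9.04% of all genes tested were called, 996 of the 25553 higher and 1314 lower. The lists were chosen with earlier results of these data known, and no test was made of a list against all genes.

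The transcription factor gene nfe2l1, whose product raises subunit genes in mammalian cells, rose in both copies. nfe2l1.S had 35.9, 45.6 and 40.6 CPM in thioridazine large cohorts and 59.8, 52.0 and 48.6 CPM in thioridazine small cohorts, against 35.0, 29.8 and 28.4 CPM in control large cohorts and 35.6, 32.5 and 32.9 CPM in control small cohorts. Every thioridazine library was above every control library, with 47.1 ± 8.45 CPM in thioridazine libraries and 32.4 ± 2.84 CPM in control libraries (SD, n = 6 each) and a change of 0.51 ± 0.08 (adjusted p = 0.00143). nfe2l1.L had 43.9, 49.7 and 53.9 CPM in thioridazine large cohorts and 64.5, 56.0 and 48.3 CPM in thioridazine small cohorts, against 37.9, 37.7 and 41.9 CPM in control large cohorts and 46.8, 43.8 and 43.7 CPM in control small cohorts. Its ranges met between 43.9 and 46.8 CPM, with a change of 0.31 ± 0.08 (adjusted p = 0.0199). Without control large replicate 1 nfe2l1.L did not pass (adjusted p = 0.0586). nfe2l2.S, which codes for the oxidative stress factor of the same family, had 32.3, 35.8 and 29.5 CPM in thioridazine large cohorts and 37.0, 38.3 and 31.5 CPM in thioridazine small cohorts, against 28.8, 25.3 and 29.8 CPM in control large cohorts and 28.3, 24.9 and 24.6 CPM in control small cohorts. Only 1 thioridazine library was under the highest control library, and the change was 0.33 ± 0.08 (adjusted p = 0.0186, and 0.0502 without thioridazine large replicate 2). maff.S, a small Maf protein that pairs with these factors, rose by 0.35 ± 0.09 (adjusted p = 0.0242) and was named after its values were seen. Its call was lost in 5 of the 12 fits without a single library, with an adjusted p of up to 0.0653.

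The largest change among these lists was that of sqstm1.L, which codes for p62, a receptor that carries ubiquitin-tagged aggregates to autophagy. It had 47.1, 82.3 and 49.2 CPM in thioridazine large cohorts and 167, 80.6 and 80.3 CPM in thioridazine small cohorts, against 36.7, 30.6 and 29.3 CPM in control large cohorts and 39.4, 35.9 and 27.8 CPM in control small cohorts. All thioridazine libraries were above all control libraries but varied widely, from 47.1 to 167 CPM, and the library at the top, thioridazine small replicate 1, was also the highest for nfe2l1.S, nfe2l1.L and maff.S. The change was 1.20 ± 0.20 (adjusted p = 0.00182), and without that library it was 1.03 (adjusted p = 0.000533). The change was 0.83 ± 0.29 in large cohorts and 1.56 ± 0.27 in small cohorts, and the interaction did not pass (adjusted p = 0.680).

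Of the degradation genes of the endoplasmic reticulum, syvn1, the ubiquitin ligase of that membrane, rose in both copies. syvn1.L had 64.8, 60.7 and 61.8 CPM in thioridazine large cohorts and 60.4, 63.7 and 68.3 CPM in thioridazine small cohorts, against 41.6, 39.9 and 46.4 CPM in control large cohorts and 50.4, 38.8 and 41.2 CPM in control small cohorts. Its groups stood apart, the lowest thioridazine library at 60.4 CPM and the highest control library at 50.4 CPM, with a change of 0.56 ± 0.07 (adjusted p = 0.00023). syvn1.S had 43.1, 43.3 and 42.4 CPM in thioridazine large cohorts and 38.3, 43.4 and 42.0 CPM in thioridazine small cohorts, against 34.4, 34.4 and 31.9 CPM in control large cohorts and 35.2, 36.1 and 34.0 CPM in control small cohorts. These groups did not overlap either, with a change of 0.29 ± 0.06 (adjusted p = 0.00587). herpud1.S, a membrane partner of that ligase, had 31.8, 31.5 and 28.0 CPM in thioridazine large cohorts and 31.9, 29.5 and 32.3 CPM in thioridazine small cohorts, against 26.8, 21.8 and 16.9 CPM in control large cohorts and 23.5, 26.3 and 27.3 CPM in control small cohorts. It rose by 0.38 ± 0.09 (adjusted p = 0.0203), with groups that did not overlap. The remaining 2, herpud1.L (0.35 ± 0.09, adjusted p = 0.0279) and derl1.L (0.26 ± 0.07, adjusted p = 0.0422), were named after their values were seen, and leaving out single libraries ended the call in 6 of 12 cases for herpud1.L and in 9 of 12 for derl1.L.

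**Figure D4:**
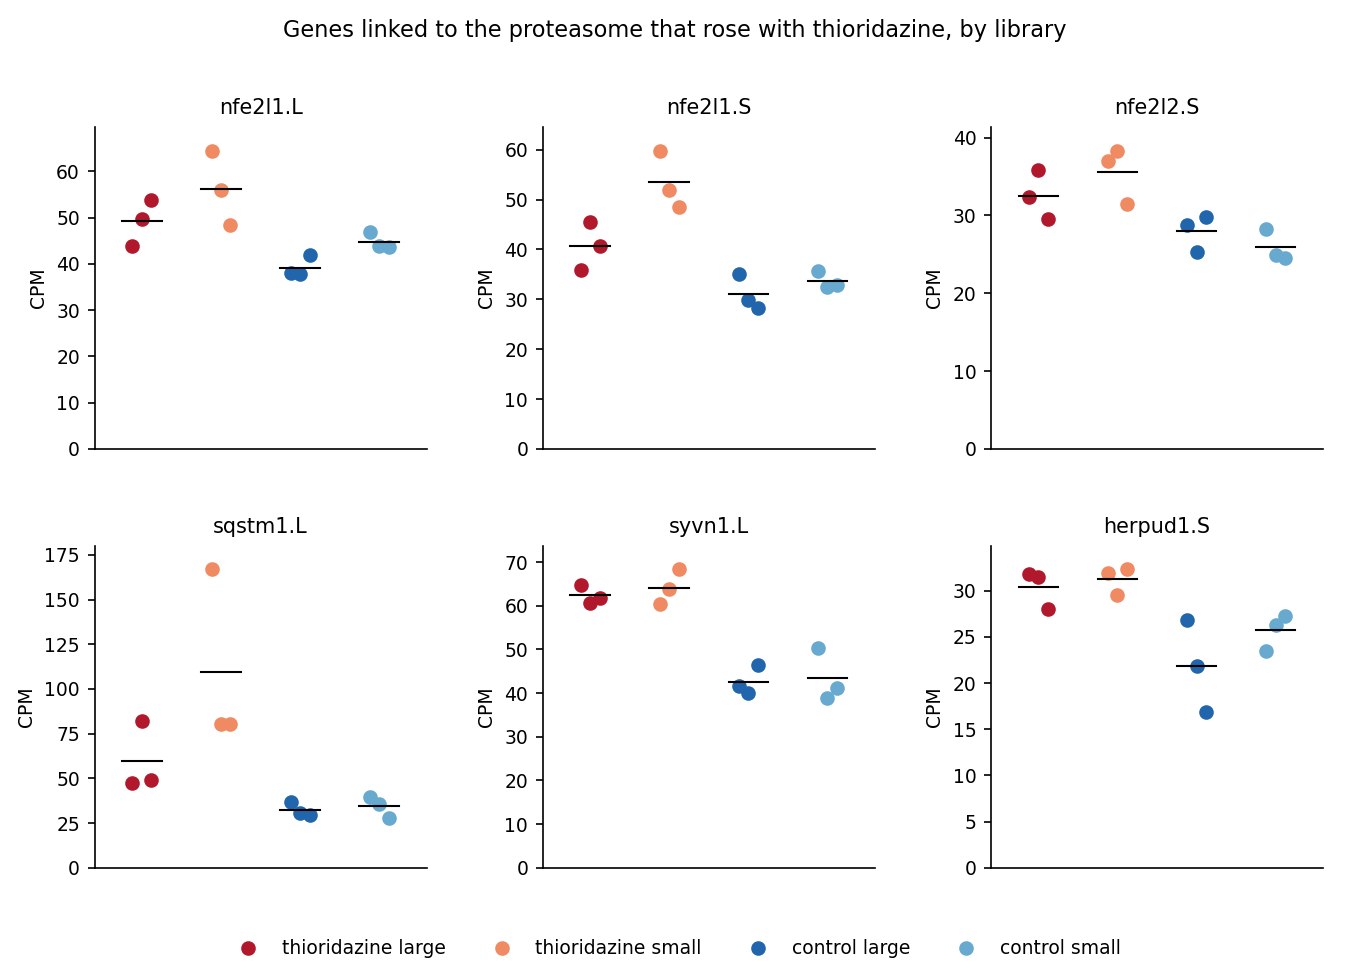
CPM in each of the 12 libraries (points) and the mean of each group of 3 (bars) for 6 genes linked to the proteasome. All 6 thioridazine libraries lie above all control libraries for nfe2l1.S, sqstm1.L, syvn1.L and herpud1.S, with sqstm1.L at 167 CPM in 1 thioridazine small library, and the ranges meet for nfe2l1.L and nfe2l2.S.

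With 2 surrogate variables, 9 of these 10 calls were lost, and syvn1.L stayed (0.64, adjusted p = 0.0476). The lost calls differed in size. In that fit the change was 0.19 for sqstm1.L, 0.21 for nfe2l1.S, 0.096 for nfe2l1.L, 0.17 for nfe2l2.S and 0.054 for maff.S, while it was 0.36 for syvn1.S, 0.34 for herpud1.S, 0.27 for herpud1.L and 0.29 for derl1.L. The proteasome genes and these linked genes share libraries and controls, so their changes are given side by side only. The activator gene psme4.L was called at 0.26 ± 0.06, and no subunit of the core, base or lid was. In the same libraries nfe2l1.S changed by 0.51 ± 0.08 and sqstm1.L by 1.20 ± 0.20. Only RNA was measured, so the level and activity of the NFE2L1 protein were not tested.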

How the data were processed

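RNA of 12 pools of whole embryos was sequenced after depletion of ribosomal RNA. According to the labels and the methods, fastp trimmed the reads, Bowtie2 handled ribosomal ones, STAR aligned the rest, and RSEM quantified genes. Genome build, tool versions and strand setting of the counting: not given in the sources used here. What the authors deposited were expected counts from RSEM (42638 genes, 32.6% of values not whole) and a log2 CPM table (26050 genes), which voom of the counts matched to 4.97e-14.

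Groups came from the sample titles. The filter asked for more than 1.8 CPM in 3 or more libraries, with library totals left whole. TMM factors came from edgeR 4.0.16, and voom with 4 group means was run in limma 3.58.1 (R 4.3.3) on all 12 libraries. Adjustment was by Benjamini-Hochberg across every gene tested, and tests were two-sided. The methods tie surrogate variables and a batch to the component analysis and name limma alone for differences. In an earlier analysis of these data the first surrogate variable also followed treatment. For both reasons the main fit holds none, a choice made with that result known. A fit with 2 surrogate variables (sva 3.50.0) is an alternative. For cohort size in controls the main fit called 32 genes (30 higher and 2 lower), and under thioridazine 19 (3 higher and 16 lower). The study reports the same counts. The fit with 2 surrogate variables called 75 and 24. The labels give no batch. For DESeq2 1.42.0 and for edgeR's test the expected counts were rounded to whole numbers. Other alternatives were RLE and upper quartile scaling, looser and stricter filters (1 count, 5 CPM), quality weights, a replicate block, summed copies, the deposited log2 CPM, the 6 libraries of a comparison alone, and each library left out, where the group of 2 shares the spread of the other groups. The fits were also run on simulated counts with known changes, and the share of those changes recovered is not given here. Within each group no pair of libraries agreed within sampling noise (chi-square per degree of freedom of 2.33 or more). RefSeq records (Xenopus_laevis_v10.1, 94.0% of identifiers found) gave names and chromosomes.

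Values in every library are given for the 3 genes of each class with the smallest p for the average thioridazine effect, and from each linked list the 3 with the smallest p could be named. The members and lists were chosen with earlier results of these data known.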

Additional observations from a re-analysis of the deposited data

Results flagged for a closer look

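For 3 proteasome genes the thioridazine libraries all lay on one side of the controls in large cohorts and all on the other side in small cohorts, a pattern shown by 0.747% of all genes tested (191 of 25553). psmg2.L was higher with thioridazine in large cohorts (0.20) and lower in small cohorts (-0.26), and the interaction was 0.46. psmd8.L, a lid subunit, was also higher in large cohorts (0.088) and lower in small cohorts (-0.078), with an interaction of 0.17. psmd12.S, another lid subunit, was lower in large cohorts (-0.12) and higher in small cohorts (0.087), with an interaction of -0.21. In limma the interaction had adjusted p of 0.493 for psmg2.L, 0.682 for psmd8.L and 0.651 for psmd12.S, so none of the differences passed the test.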

How the results depend on the processing

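The share of all genes called under the same setting is given in brackets. For the average thioridazine effect the count of called proteasome genes was 1 (9.04%). It was 0 with 2 surrogate variables (0.25%) and 2 with upper quartile scaling (psma2.S added, 9.36%). With L and S counts summed it was 2 (10.1%), and with single libraries left out 1 to 2 (5.74% to 10.7%). With the replicate number as a block it was 2 (8.6%), with psme3.L added (adjusted p = 0.0447). For thioridazine in large cohorts the count was 0 (2.24%). There it was 1 with sample quality weights (3.44%) and 1 with the 6 libraries compared alone (3.36%). Leaving out single libraries gave 0 to 2, with psmb4.L and psme4.L called without thioridazine small replicate 3 (2.73%). In small cohorts, where the count was also 0 (2.81%), leaving out single libraries gave 0 to 1. The 1 was psme4.L without thioridazine small replicate 3 (4.75%). The median change of 0.035 in small cohorts was -0.038 with 2 surrogate variables. For cohort size in controls the count was 0 (0.125%). It was 1 with DESeq2 (0.45%) and 1 with the 6 libraries compared alone (0.624%), psmb4.L both times. The cause was not tested. The counts for the interaction, for cohort size under thioridazine and for the homeolog pairs were 0 under every alternative run. Of the single genes, the change of psmd10.L had the opposite sign (-0.024) when its copies were summed.

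Same-numbered samples of different groups deviated with correlations of -0.15 to 0.10. With noise in every gene and few libraries per group, these values cannot tell whether such samples shared a clutch, week or batch. The replicate block moved no count of calls in the other comparisons. Low counts limit psme1.S, psme2.L and the chaperone genes with low levels, such as psmg4.L and psmd10.L. The genes psmb8.L and psmb9.S had few counts, were below the cutoff and were not tested. No gene with the symbol psmb10 was found at all.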
